A study of Mus musculus with 8 samples.

Results

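Peroxisome proliferator-activated receptors (PPARs) are nuclear receptors that bind fatty acids and their derivatives and, paired with a retinoid X receptor, switch on genes of lipid storage and burning. PPARγ (Pparg) drives fat storage in adipocytes and is also abundant in the surface epithelium of the colon. PPARα (Ppara) drives fatty acid oxidation and PPARδ (Ppard) acts in most tissues. This account follows 9 genes of the circuit in mouse colon: the 3 receptors, the coactivator Ppargc1a (PGC-1α) and the direct targets Angptl4, Plin2, Cidec, Fabp4 and Pdk4. They were chosen by name, with earlier results of these data known. All 9 were found among the 14351 genes of the value table, each through 1 probe set named for 1 RefSeq transcript. RefSeq lists 4 curated transcripts of Pparg, and its isoforms cannot be told apart here.

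Affymetrix arrays were hybridised with colon RNA of adult mice, 3 from wild type mice (WT), 3 from STAT5b-/- mice, which lack the transcription factor STAT5b, and the sample REF, also wild type, whose name the labels do not explain. The labels give females except for 1 male, STAT5b-/- replicate 1. They do not give the strain, the exact age, how the allele was made, whether animals were pooled or whether replicates were separate animals. If they were not, the p-values here measure technical spread only. The deposited values had been divided, probe set by probe set, by the WT mean, so the WT arrays average 1 by construction, no gene's level can be set against another's, and the tissue label cannot be checked against defining markers. The 2 deposited REF columns were the same to within 2.47e-07 (relative gap), a difference of the size of rounding, so they entered as 1 sample.

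The array medians over all probe sets lay between 0.948 and 1.04. Stat5b itself, the gene named in the label, had ratios of 1.08, 0.930 and 0.993 in WT, 1.16, 1.17 and 1.26 in the STAT5b-/- arrays and 1.18 in REF. It was thus no lower under the STAT5b-/- label. All 3 STAT5b-/- arrays lay above all WT arrays, as they did for 25% of all genes, but the difference did not pass (limma adjusted p = 0.175). How the allele was made is not given in the labels, so the Stat5b probe set checks nothing, and each direction below rests on the labels.

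In the arrays labelled STAT5b-/-, the lipid droplet gene Cidec was 10.4-fold higher than in WT, Pdk4 4.72-fold, Pparg 4.13-fold, Plin2 2.20-fold and Ppara 2.19-fold, while Ppargc1a was 1.60-fold lower. Of the 9 genes, 5 were thus higher and 1 lower by limma's test at an adjusted p under 0.05. Over all genes tested, 13.3% were higher and 8.42% lower, 21.7% together. The median log2 fold change was 1.13 over the 9 genes and 0.0068 over all genes. As the 9 genes were chosen with earlier results known, these shares and medians are no test of them as a set. The other 3 genes, Ppard, Angptl4 and Fabp4, did not pass the test. The groups did not overlap in 8 of the 9 genes, 6 higher and 2 lower, where 41.5% of all genes did not overlap (25% higher, 16.5% lower). In whole tissue, more cells of a type and more RNA per cell cannot be told apart.

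**Figure D1:**
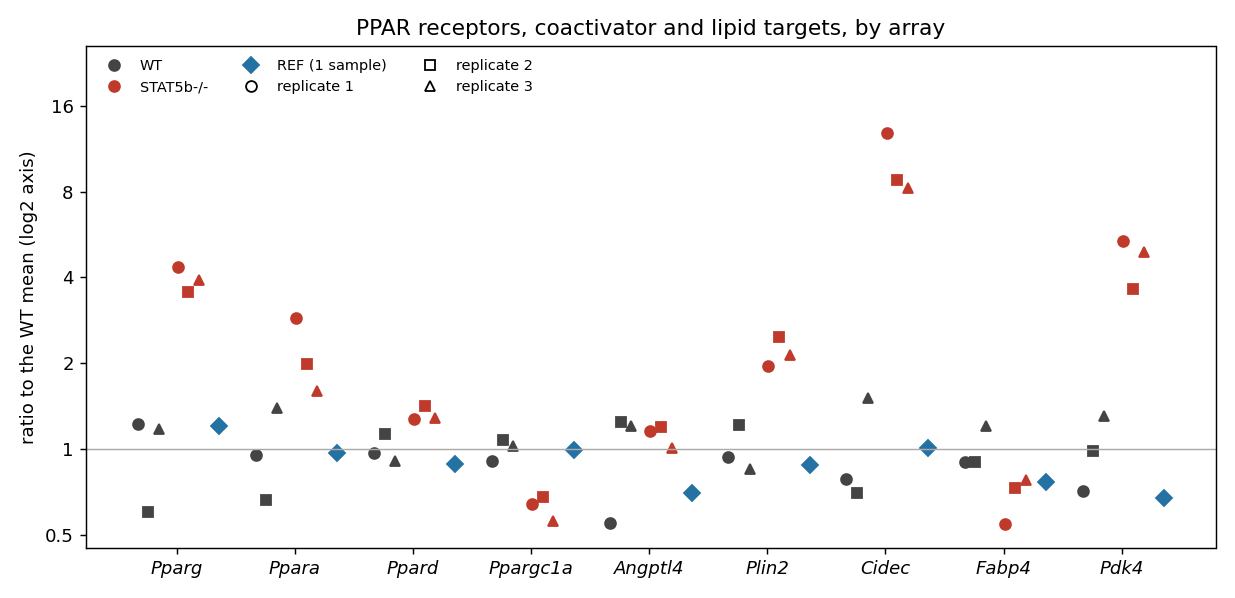
Ratio to the WT mean on a log2 axis for each of the 9 genes in every sample: WT arrays in grey, STAT5b-/- arrays in red with the replicate number given by the symbol, and REF in blue. The STAT5b-/- arrays lie above all WT arrays for Pparg, Ppara, Ppard, Plin2, Cidec and Pdk4, below them for Ppargc1a and Fabp4, and overlap them for Angptl4.

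**Figure D2:**
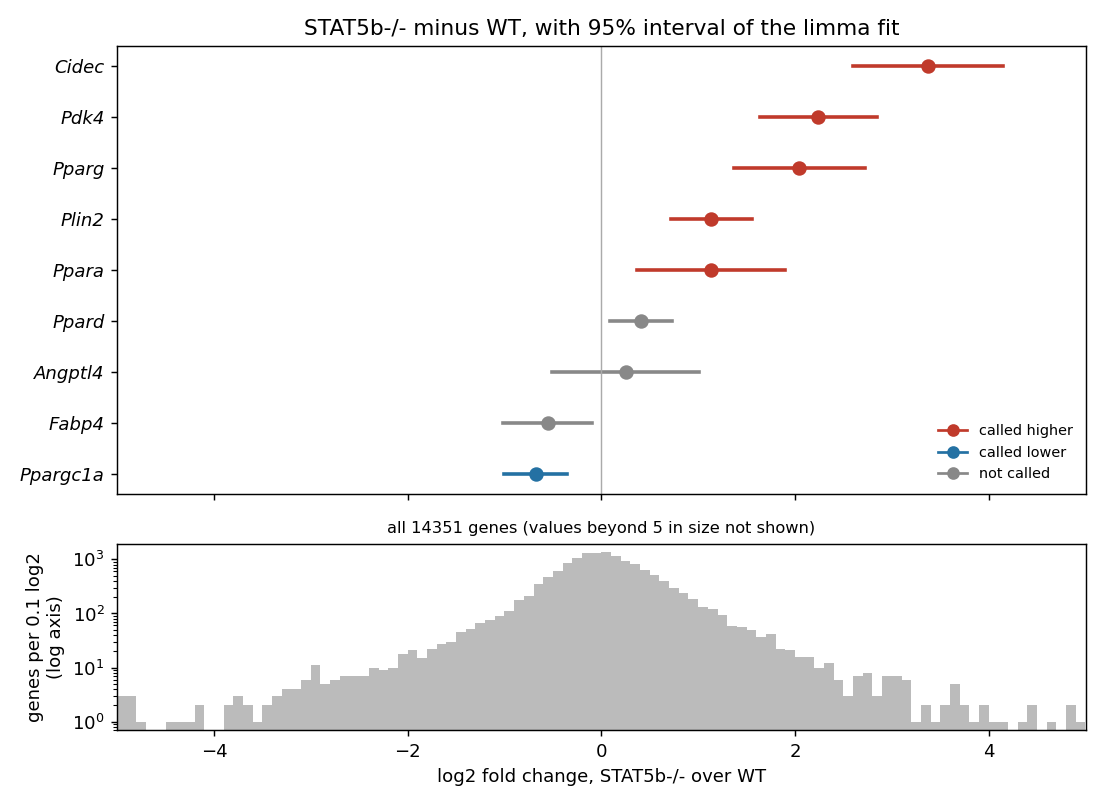
Upper panel: log2 fold change of STAT5b-/- over WT for each of the 9 genes with the 95% interval of the limma fit, not adjusted for multiple genes (n = 3 arrays per group). Lower panel: the same quantity for all 14351 genes, with a logarithmic count axis. Cidec, at 3.37, lies far out in the upper tail, and Angptl4, at 0.25, lies in the bulk.

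To show the regulatory sequence beside these values, the 250 bases before the annotated starts were taken from the RefSeq promoter table of build GRCm38.p6, which held 10 windows for 7 of the 9 genes. They were searched on both strands for the receptor's core hexamer AGGTCA, for its direct repeat with 1 base between the copies, called DR1, which contains that hexamer and is the form bound by the PPAR and retinoid X receptor pair, and for the STAT dimer motif TTCNNNGAA. The hexamer occurred in 3 of the 10 windows, against 14.0% of all 32851 windows of this length. Neither the direct repeat, present in 0.0335% of all windows, nor the STAT motif, present in 7.02%, occurred in any of the 10. The windows with the hexamer belong to starts of Pparg and to Plin2. They are printed with those of Cidec, the gene with the largest change, 5′ to 3′ on the gene's strand, with the hexamer or its reverse complement in capitals:
Pparg, chr6:115360894-115361143, plus strand: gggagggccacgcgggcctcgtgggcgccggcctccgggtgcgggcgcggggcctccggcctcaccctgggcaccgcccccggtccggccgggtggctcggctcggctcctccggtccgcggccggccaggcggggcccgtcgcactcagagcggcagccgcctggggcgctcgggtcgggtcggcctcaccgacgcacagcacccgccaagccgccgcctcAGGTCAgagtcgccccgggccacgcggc
Pparg, chr6:115362099-115362348, plus strand: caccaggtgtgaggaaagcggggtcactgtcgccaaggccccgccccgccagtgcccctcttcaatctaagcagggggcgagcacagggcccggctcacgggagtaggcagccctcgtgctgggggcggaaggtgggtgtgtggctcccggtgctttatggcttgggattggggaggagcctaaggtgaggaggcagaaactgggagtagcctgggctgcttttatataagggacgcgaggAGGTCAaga
Plin2, chr4:86670060-86670309, minus strand: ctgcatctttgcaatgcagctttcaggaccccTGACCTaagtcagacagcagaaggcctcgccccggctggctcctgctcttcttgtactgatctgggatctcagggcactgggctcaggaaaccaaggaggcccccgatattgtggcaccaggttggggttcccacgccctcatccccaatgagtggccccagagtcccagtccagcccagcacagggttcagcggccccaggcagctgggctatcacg
Cidec, chr6:113434765-113435014, minus strand: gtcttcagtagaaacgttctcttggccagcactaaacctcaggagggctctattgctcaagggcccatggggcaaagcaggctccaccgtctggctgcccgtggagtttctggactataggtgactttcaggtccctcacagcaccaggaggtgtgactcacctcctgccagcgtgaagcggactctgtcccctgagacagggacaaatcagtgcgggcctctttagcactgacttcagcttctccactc
Cidec, chr6:113435761-113436010, minus strand: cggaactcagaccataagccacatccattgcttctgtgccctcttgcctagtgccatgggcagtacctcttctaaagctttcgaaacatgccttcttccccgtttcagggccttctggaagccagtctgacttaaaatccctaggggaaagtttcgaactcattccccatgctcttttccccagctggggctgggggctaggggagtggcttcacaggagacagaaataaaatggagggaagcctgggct
In Pparg the hexamer begins 28 bases before the first of these starts and 9 bases before the second, on the gene's own strand. In Plin2 it begins 218 bases before the start, on the opposite strand. A match is a description of letters, and its absence says only that these letters are not in this window.

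The ratios of Pparg were 1.22, 0.602 and 1.17 in WT and 4.36, 3.56 and 3.93 in the STAT5b-/- arrays. The lowest STAT5b-/- array was 2.91 times the highest WT array, and REF, at 1.20, lay inside the WT range. The rise on the log2 scale was 2.05 ± 0.28 (SE, limma adjusted p = 0.00372). Only 0.864% of all genes had a larger rise. The SD of the log2 ratios was 0.145 among the STAT5b-/- arrays and 0.575 among the WT arrays (n = 3 each), where replicate 2 stood low.

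Ppara had ratios of 0.953, 0.660 and 1.39 in WT, 2.89, 1.99 and 1.60 in the STAT5b-/- arrays and 0.969 in REF. The groups were apart, but the lowest STAT5b-/- array was only 1.15 times the highest WT array. The log2 fold change of 1.13 ± 0.32 passed narrowly (limma adjusted p = 0.0482). The call ended when any 1 of 5 arrays was left out (adjusted p from 0.0643 to 0.149) and held without WT replicate 3 (0.0322), and it also ended with median centring of the arrays (0.0501) and with limma's robust variance model (0.0515). The male array, STAT5b-/- replicate 1, had the highest value, and without it the log2 fold change was 0.90.

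Ppard had the smallest log2 fold change of the receptors. Its ratios were 0.969, 1.13 and 0.906 in WT, 1.28, 1.42 and 1.28 in the STAT5b-/- arrays and 0.888 in REF. The groups did not overlap, yet the log2 fold change of 0.41 ± 0.13 (95% interval 0.090 to 0.73) did not pass (limma adjusted p = 0.0735). It passed without WT replicate 2 (0.50, adjusted p = 0.0286) and with REF joined to the WT group (0.45, adjusted p = 0.0317).

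The receptors were also compared with each other inside each array. The log2 ratio of Pparg minus that of Ppara went from -0.004 ± 0.32 in WT to 0.911 ± 0.36 in STAT5b-/- (SD, n = 3 each), with no overlap. Pparg minus Ppard went from -0.064 ± 0.73 to 1.57 ± 0.23, also with no overlap. Ppara minus Ppard went from -0.060 ± 0.69 to 0.662 ± 0.46, and here the groups overlapped. The exact 2-sided permutation p was 0.1, 0.1 and 0.3 for these 3 pairs (0.15, 0.15 and 0.3 after Benjamini-Hochberg adjustment), and with 3 arrays against 3 this test cannot give less than 0.1. With quantile normalization the change of Pparg minus Ppard was 0.98, against 1.64 as reported.

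The coactivator Ppargc1a, which boosts PPAR and mitochondrial gene transcription, went the other way. Its ratios were 0.907, 1.07 and 1.02 in WT and 0.642, 0.677 and 0.559 in the STAT5b-/- arrays, and REF, at 0.992, lay among the WT arrays. The log2 fold change was -0.68 ± 0.14 (limma adjusted p = 0.0143), and the call ended without STAT5b-/- replicate 3 (-0.60, adjusted p = 0.0631). Its relative Ppargc1b rose by 0.59 ± 0.14 (adjusted p = 0.0249), with ratios of 0.942, 0.979 and 1.08 in WT and 1.55, 1.65 and 1.32 in STAT5b-/-. These coactivators thus changed in opposite directions.

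Among the coreceptors and coregulators, 3 of the 18 measured genes rose and 0 fell, where 13.3% of all genes rose and 8.42% fell. These shares are the background for every list counted below. Rxra, the retinoid X receptor that pairs with the PPARs, rose by 1.15 ± 0.14 (limma adjusted p = 0.00239), from ratios of 0.964, 0.927 and 1.11 to 2.47, 2.18 and 2.01, with 1.02 in REF. Hdac3, the deacetylase of the nuclear corepressor complex, rose by 0.98 ± 0.14, and Ppargc1b was the third. The corepressor Ncor1 had a log2 fold change of 0.22 and did not pass. Of the 15 transcription factors of fat cell development that were measured, limma called 0 in either direction, with 4 at an unadjusted p under 0.05. Those with the smallest p were Gata2, Srebf1 and Cebpa, with log2 fold changes of -0.48, 0.84 and 0.53 (adjusted p = 0.0749, 0.0883 and 0.0883).

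Cidec, which joins lipid droplets so that fat moves into the larger of them, changed most of the 9 genes. Its ratios were 0.786, 0.699 and 1.52 in WT, 12.8, 8.77 and 8.25 in the STAT5b-/- arrays and 1.01 in REF. The lowest STAT5b-/- array was 5.45 times the highest WT array. The log2 fold change was 3.37 ± 0.32 (limma adjusted p = 0.000979), and 0.202% of all genes had a larger rise. The male array was the highest, and without it the log2 fold change was 3.18 (adjusted p = 0.00802).

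Plin2, the coat protein of lipid droplets in most cells outside fat, had ratios of 0.940, 1.21 and 0.848 in WT, 1.95, 2.47 and 2.13 in the STAT5b-/- arrays and 0.881 in REF. Its rise on the log2 scale was 1.14 ± 0.18 (limma adjusted p = 0.00561). Here the female STAT5b-/- replicate 2 was the highest and the male replicate 1 the lowest.

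The relatives of these droplet genes did not all pass the test. Cideb, a CIDE protein of liver and gut, rose by 1.73 ± 0.18, while Cidea, typical of brown fat, had a log2 fold change of -0.026 ± 0.16. Of the other perilipins measured, Plin4 rose by 1.22 ± 0.28, and Plin3 and Plin5 had 0.24 ± 0.19 and 0.40 ± 0.23 and did not pass. Of 18 measured genes of droplet coats and assembly, without Plin2 and Cidec, 7 rose and 2 fell. Dgat2, which makes triglyceride, rose by 1.86 ± 0.17, from ratios of 0.903, 0.929 and 1.17 to 4.20, 3.12 and 3.54. Dgat1, Gpat3, Gpat4 and the droplet budding factor Fitm2 also rose. Hilpda, a lipase inhibitor of the droplet, fell by 1.07 ± 0.18, and the droplet enzyme Hsd17b13 fell by 3.71 ± 0.34. Hsd17b13 had ratios of 0.952, 0.555 and 1.49 in WT and 0.0714, 0.0626 and 0.0792 in STAT5b-/-, but REF, a wild type sample, was lower still at 0.0472.

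Enzymes that break fat down rose as well, 7 of 15 measured and 0 fallen. Ces1d, a carboxylesterase that hydrolyses triglyceride, rose by 3.12 ± 0.27, the hormone-sensitive lipase Lipe by 1.63 ± 0.15 and the lysosomal lipase Lipa by 1.35 ± 0.13. The first lipase of droplet breakdown, Pnpla2, had ratios of 1.06, 0.904 and 1.04 in WT and 2.25, 2.33 and 2.29 in the STAT5b-/- arrays. Its activator Abhd5 and its inhibitor G0s2 had log2 fold changes of 0.10 and -0.19, neither of which passed.

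**Figure D3:**
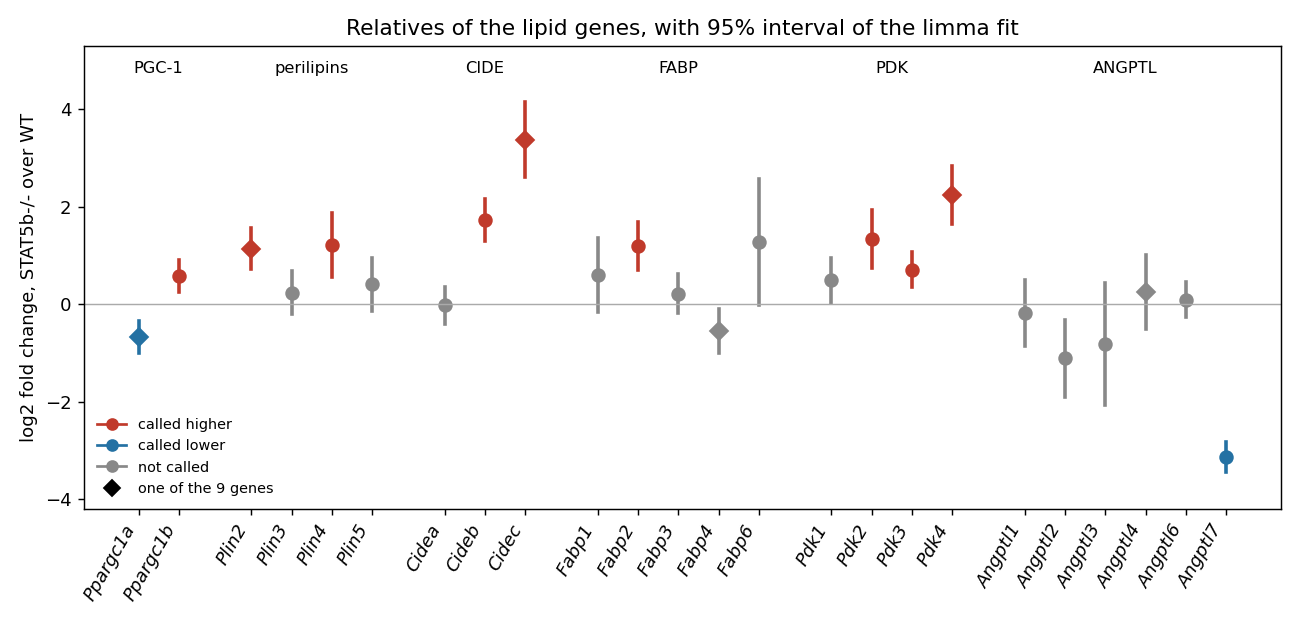
Log2 fold change of STAT5b-/- over WT with the 95% interval of the limma fit for the measured relatives of Ppargc1a, Plin2, Cidec, Fabp4, Pdk4 and Angptl4 (n = 3 arrays per group). Diamonds are the 9 genes and circles their relatives; red and blue mark genes called higher and lower. Cidec and Pdk4 have the largest rises of their families, and Angptl7, at -3.14, has the largest fall shown.

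Pdk4, a kinase that switches off the pyruvate dehydrogenase complex and so spares glucose when fat is burned, had ratios of 0.714, 0.985 and 1.30 in WT, 5.35, 3.65 and 4.92 in the STAT5b-/- arrays and 0.673 in REF. The lowest STAT5b-/- array was 2.81 times the highest WT array, and REF lay below all WT arrays. Its rise on the log2 scale was 2.24 ± 0.25 (SE, limma adjusted p = 0.00184). Among the other kinases of the complex, Pdk2 rose by 1.33 ± 0.25 and Pdk3 by 0.70 ± 0.15, and Pdk1 had 0.49 ± 0.19 and did not pass (adjusted p = 0.123). Pdp2, a phosphatase that reverses these kinases, fell by 1.01 ± 0.15, from ratios of 1.08, 0.993 and 0.923 to 0.509, 0.431 and 0.557. The related Pdp1 was not measured. Pdha1, the subunit that the kinases phosphorylate, fell by 0.89 ± 0.14. Other subunits, Pdhb, Dlat and Dld, rose. Of the 12 measured genes of the complex and its regulators, 5 rose and 2 fell, Pdk4 not counted.

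Angptl4, a secreted inhibitor of lipoprotein lipase and a common marker of PPAR activity, did not pass the test. Its ratios were 0.548, 1.25 and 1.21 in WT, 1.16, 1.19 and 1.01 in the STAT5b-/- arrays and 0.698 in REF, and the groups overlapped. The log2 fold change was 0.25 ± 0.32 (95% interval -0.51 to 1.01, limma adjusted p = 0.638). WT replicate 1 stood low, and without it the value was -0.14. The interval includes a rise to about the size of Ppard's and beyond but not one as large as those of Pparg, Pdk4 or Cidec. Its target Lpl, lipoprotein lipase, rose by 0.84 ± 0.21 (adjusted p = 0.0341). Of the 5 other angiopoietin-like genes measured, Angptl7 fell by 3.14 ± 0.13, with ratios of 1.11, 0.989 and 0.901 in WT, 0.117, 0.108 and 0.114 in STAT5b-/- and 0.665 in REF, and the remaining 4 did not pass.

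Fabp4, the fatty acid binding protein of adipocytes, endothelium and macrophages, had ratios of 0.897, 0.903 and 1.20 in WT and 0.545, 0.728 and 0.778 in the STAT5b-/- arrays. The groups did not overlap, but REF, at 0.763, lay inside the range of the STAT5b-/- arrays. The log2 fold change was -0.55 ± 0.19 (95% interval -1.01 to -0.093) and did not pass (limma adjusted p = 0.0883). Of the other binding proteins, the intestinal Fabp2 rose by 1.19 ± 0.21, and Fabp1, Fabp3 and Fabp6 did not pass. Among the 15 measured genes of fatty acid uptake and activation, 4 rose and 0 fell. Those that rose include the transport protein Slc27a4, by 1.97 ± 0.14, and the droplet acyl-CoA synthetase Acsl3, by 1.60 ± 0.19. The other 11 did not pass, among them Cd36 and Acsl1, with log2 fold changes of 0.14 and -0.12.

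Genes that burn fatty acids, many of them known PPAR targets, rose in 30 of 38 measured and fell in 0, with a median log2 fold change of 0.95. The pantetheinase Vnn1 rose by 1.99 ± 0.18 and the short-chain dehydrogenase Acads by 1.54 ± 0.12. Liver PPARα targets were not uniform here: the peroxisomal thiolase Acaa1b rose by 3.83 ± 0.38, whereas Cyp4a10, Cyp4a14 and Fgf21 had log2 fold changes of 0.07, -0.19 and -0.26, none of which passed. Since Pdk4 and Angptl4 also answer to fasting, glucocorticoids and low oxygen, those lists were counted too. Of 19 measured genes of the fasting and glucocorticoid response 9 rose and 0 fell, and those with the smallest p were Sgk1 (1.34 ± 0.15), Fkbp5 (1.29 ± 0.18) and Txnip (0.89 ± 0.13). Of 16 measured hypoxia genes 3 rose and 4 fell, where 13.3% of all genes rose and 8.42% fell. The hypoxia genes called include Car9 (1.02 ± 0.15), Egln3 (-0.90 ± 0.16) and P4ha1 (-0.68 ± 0.16). The part of these responses in the values of Pdk4 and Angptl4 was not tested.

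**Figure D4:**
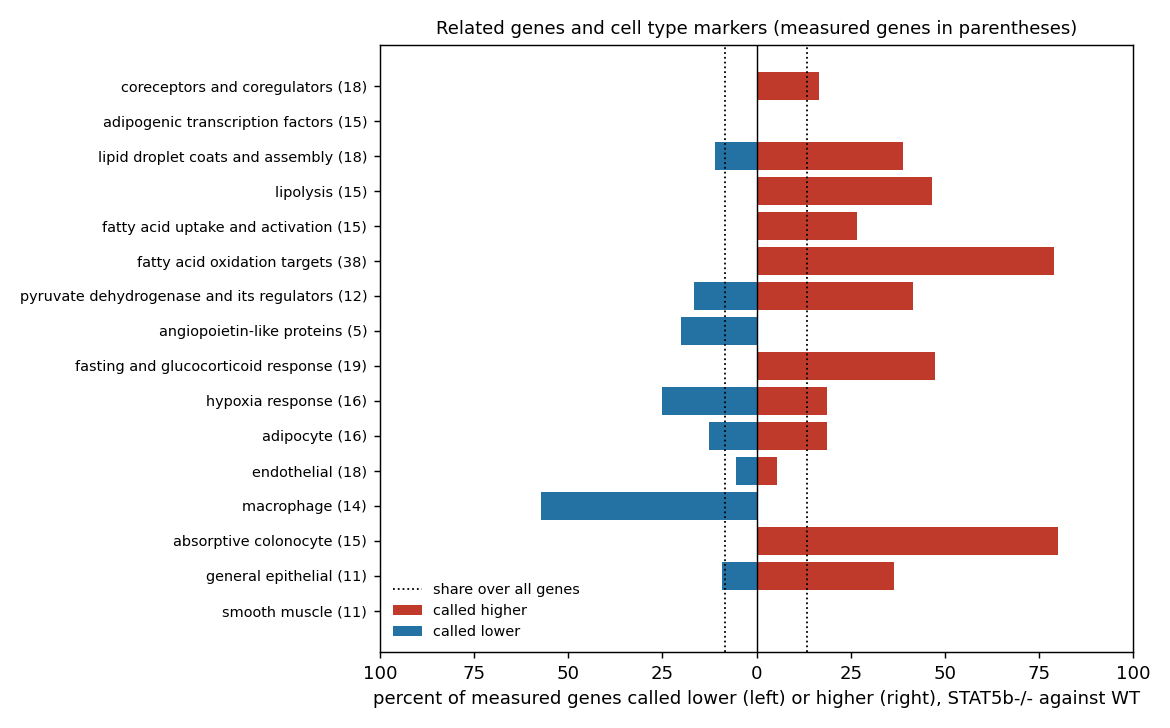
Percent of the measured genes of each list called higher (red, to the right) or lower (blue, to the left) in STAT5b-/- against WT, with the 9 genes left out of every list and the number measured in parentheses. Dotted lines mark the shares over all genes, 13.3% higher and 8.42% lower. Fatty acid oxidation and absorptive colonocyte genes lie mostly on the right and macrophage markers on the left.

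Several of the 9 genes are also made by cell types other than the epithelium, and marker lists of those cells were read from the same arrays. Adipocyte markers as a list were not higher in the arrays where Cidec and Pparg were. Of 16 measured, 3 were higher (Gpd1, Acvr1c and Lipe) and 2 lower (Tmem120b and Slc36a2), with a median log2 fold change of -0.11. Over all genes, 13.3% were higher and 8.42% lower. The median log2 ratio of the list was -0.18 to 0.08 in WT, -0.23 to -0.13 in the STAT5b-/- arrays and -0.21 in REF. No marker was at the floor of the scale in any array. The hormone adiponectin (Adipoq), chosen for display after its values were seen like the other markers in this paragraph, had ratios of 0.878, 0.260 and 1.86 in WT, 0.244, 0.242 and 0.467 in the STAT5b-/- arrays and 0.378 in REF. Cfd, the adipocyte complement factor, had 0.697, 0.186 and 2.12 in WT and 0.316, 0.224 and 0.566 in the STAT5b-/- arrays. For both genes the groups overlapped and the test was not passed. The log2 fold change was -1.32 ± 0.69 for Adipoq (limma adjusted p = 0.230) and -0.93 ± 0.84 for Cfd (0.495). Among the WT arrays, replicate 3 was the highest for 8 of the 16 markers, Adipoq and Cfd included, and the lowest for 4 (Thrsp, Acvr1c, Pck1 and Tmem120b). It was the highest WT array for Ppara, Cidec, Fabp4 and Pdk4. Without it the log2 fold changes were 3.72 for Cidec, 2.45 for Pdk4, 1.40 for Ppara and -0.41 for Fabp4.

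**Figure D5:**
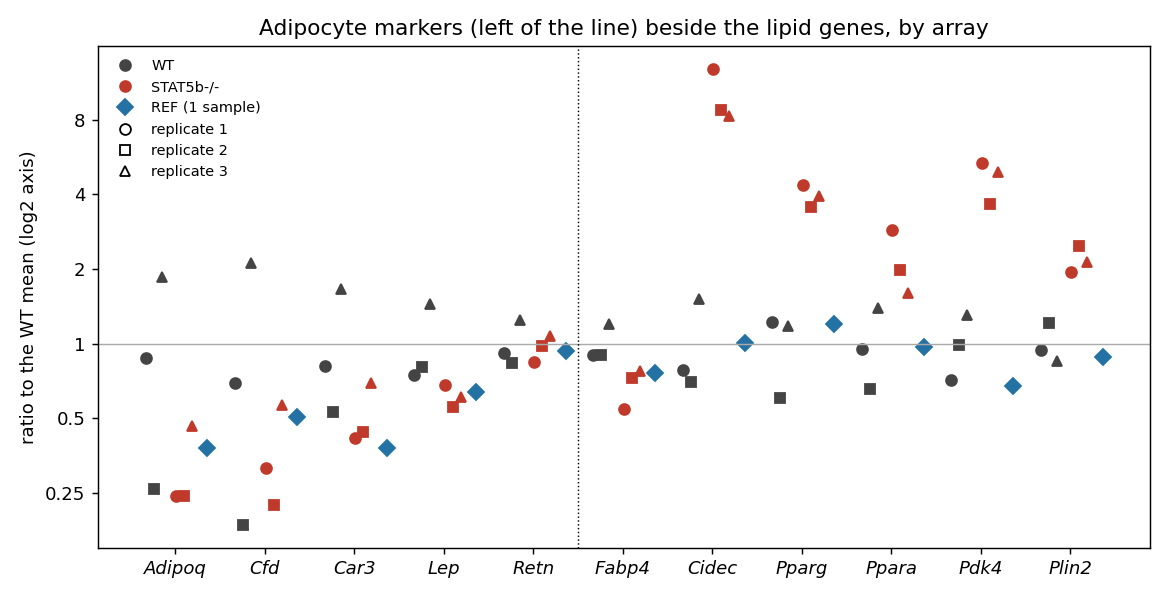
Ratio to the WT mean on a log2 axis in every sample for 5 adipocyte markers, left of the dotted line, and 6 of the 9 genes, right of it; WT arrays grey, STAT5b-/- arrays red, REF blue, symbols by replicate. The 5 markers were chosen after their values were seen, and none of them was called. The 3 adipocyte markers called higher (Gpd1, Acvr1c and Lipe) and the 2 called lower are not shown. WT replicate 3 is the highest array for Adipoq (1.86), Cfd (2.12), Car3 and Lep, while the STAT5b-/- arrays are not above it for these markers and are the highest for Cidec.

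Macrophage markers were lower beside Fabp4, with 8 of 14 measured fallen and 0 risen, among them Mrc1 (by 1.92 ± 0.19) and Lyz2 (by 1.33 ± 0.19). Their median log2 ratio was -0.20 to 0.17 in WT, -0.84 to -0.44 in the STAT5b-/- arrays and -0.0014 in REF. Endothelial markers had 1 of 18 higher, Plvap, and 1 lower, Tek, with median log2 ratios of -0.03 to 0.05 in WT and -0.15 to 0.07 in STAT5b-/-. Of 11 smooth muscle markers limma called 0 in either direction, with 0 at an unadjusted p under 0.05. Beside Pparg, 12 of 15 markers of absorptive colonocytes rose and 0 fell, among them Tmigd1 (2.79 ± 0.27) and the butyrate transporter Slc16a1 (1.34 ± 0.14). Their median log2 ratio was -0.03 to 0.01 in WT, 0.92 to 1.22 in STAT5b-/- and 0.06 in REF. General epithelial genes had 4 of 11 risen, 1 fallen (Krt18) and a median log2 fold change of 0.39. The part of these cell types in the changes of the 9 genes was not tested.

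REF, the further wild type sample, gave a view of the circuit outside the comparison. It lay inside the WT range for Pparg, Ppara, Ppargc1a, Angptl4, Plin2 and Cidec and below it for Ppard, Fabp4 and Pdk4. Its log2 difference from WT was largest for Pdk4, at -0.53 ± 0.39 (SE, limma adjusted p = 0.998). In that comparison of 1 sample with 3, limma called 0 of all genes (0%), with 208 at an unadjusted p under 0.05, and it shares the WT arrays with the comparison above.

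The order of arrays within a group was not the same for all 9 genes. Among the STAT5b-/- arrays, the male replicate 1 was the highest for Pparg, Ppara, Cidec and Pdk4 and the lowest for Ppard, Plin2 and Fabp4. Replicate 2 was the highest for Ppard, Ppargc1a, Angptl4 and Plin2. Without the male array, the calls of Pparg, Plin2, Cidec, Pdk4 and Ppargc1a held, and that of Ppara ended. WT replicate 2 was the lowest WT array for Pparg, Ppara and Cidec and the highest for Ppard, Ppargc1a, Angptl4 and Plin2.

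For each of the 9 genes the nearest patterns over the 7 samples were found by the Euclidean distance of log2 ratios. Genes with predicted or numbered symbols were left out of this search. Vps37b, of the endosomal sorting complex, and Mapre3, a microtubule end protein, were nearest to Pparg, at distances of 0.336 and 0.383. The exporter Slc47a1 and Mpp6 were nearest to Cidec (0.618 and 0.637). The peptide hormone secretin (Sct) and the kinase Prkg2 were nearest to Pdk4 (0.662 and 0.670). Cdhr2, a brush border cadherin, and Hoxd4 were nearest to Plin2 (0.336 and 0.338), and Ttc19 and Tspan2 to Ppara (0.495 and 0.502). Igfbp7 and Herpud1, of the endoplasmic reticulum, followed the fall of Ppargc1a (0.182 and 0.220). Katna1 and Pdcd6 were nearest to Ppard (0.128 and 0.174), Galnt12 and Upf3b to Fabp4 (0.149 and 0.273), and Jmy and Itgb1bp2 to Angptl4 (0.392 and 0.462).

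All these calls were made on the authors' scaling. With quantile normalization, which gives every array the same spread of ratios, 0 of the 9 genes and 2.73% of all genes were called. The log2 fold changes were then 2.02 for Cidec, 1.37 for Pdk4, 1.32 for Pparg, 0.87 for Plin2, 0.70 for Ppara and -0.54 for Ppargc1a, with adjusted p from 0.0726 for Plin2 to 0.626 for Ppara. With median centring, 4 of the 9 genes were called higher and 1 lower. Division by the WT mean narrows the WT ratios by construction. The SD of log2 ratios over all probe sets was 0.289 to 0.363 in WT, 0.646 to 0.737 in STAT5b-/- and 0.402 in REF. Quantile normalization evens out this difference too, so its loss of calls cannot decide how far they depend on the scaling.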

How the data were processed

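Expression was measured in 3 WT, 3 STAT5b-/- and the REF arrays. Per the submitters' processing notes, RMA was used (no version stated). The sources used here do not name the array type. The deposited values are ratios, linear and not log2: per the values, the authors divided each probe set by its mean over the 3 WT arrays (which is 1 to within 1.87e-07), with a lowest value of 0.01. This removes levels between probe sets and any filter on dim ones; no scanner intensities were used, and the number of arrays limits the precision.

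Probe sets were named through the accession they carry, version dropped, with RefSeq's gene table (GRCm38.p6). Of 26180 probe sets, 15228 matched 1 symbol, 0 several and 10952 none. Ratios were taken to log2 with no pseudocount, and probe sets of a gene averaged. STAT5b-/- and WT were compared over 6 arrays with limma 3.58.1 (lmFit, eBayes) in R 4.3.3, calling a gene at a Benjamini-Hochberg adjusted p under 0.05 across the 14351 genes. Folds come from mean log2 ratios, and errors are SE of the fit unless SD is named. The script was tested on simulated data.

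The 9 genes and the 16 lists (10 of pathways, 6 of cell types) were chosen with earlier results of these data known; lists are described by counts and medians, with no set test. Genes named from a list are the 3 (pathways) or 2 (cell types) with the smallest p, plus relatives of the 9 genes and others chosen after their values were seen. Some genes that this rule names are not reported here. Alternatives were leaving out each array, quantile normalization, median centring, the probe set with the highest mean, each probe set alone, a replicate block, a pseudocount of 0.1, robust eBayes and REF joined to WT.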

Additional observations from a re-analysis of the deposited data

How the results depend on the processing

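Against 3119 genes called in the reported fit (61.2% of them higher), quantile normalization left 392 (42.1% higher), the fit with the replicate number as a block 2039, and testing every probe set on its own gave 5099 of 26180 probe sets; leaving out 1 array gave 1716 to 3551, with 1914, 1716 and 1852 without STAT5b-/- replicates 1, 2 and 3. Of the list genes, 108 were called, and 15 with quantile normalization. Deviations from the group means of same-numbered arrays correlated at 0.0355, -0.0984 and -0.186, and those of differently numbered arrays at -0.137 to 0.216. With 3 arrays per group, these values cannot decide whether the replicate numbers pair the arrays. With the block the call of Ppara ended (adjusted p = 0.082), as it did with every probe set on its own (0.0537); no other call of the 9 genes changed with either. Pparg, Plin2, Cidec and Pdk4 kept their direction and their call in every alternative except quantile normalization, and Ppargc1a in every one except that and leaving out STAT5b-/- replicate 3. Angptl4 ranged from -0.14 (without WT replicate 1) to 0.46 (without WT replicate 2) when 1 array was left out, and its sign turned in no other alternative. The differences between receptors, recomputed without each array, with REF joined and, chosen after seeing the data, with the pseudocount and quantile normalization, kept their sign: 0.62 to 1.10 for Pparg minus Ppara, 0.98 (quantile normalization) to 1.86 for Pparg minus Ppard, and 0.36 to 1.06 for Ppara minus Ppard. Leaving out 1 array gave 1.22 to 1.86 for Pparg minus Ppard. The cause of these shifts was not tested.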
